A study of Rattus norvegicus with 24 samples.

Results

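The genes that encode the subunits of the proteasome were followed in the striatum and in the whisker follicles of male Sprague-Dawley rats. They were taken as every row of the deposited expression table whose symbol is Psma, Psmb, Psmc, Psmd or Psme with a number, which gave 43 genes of 17711 rows. In the striatum, 6 libraries came from rats that self-administered methamphetamine (MA) and 6 from rats that self-administered saline (SA), and the same design held for the whisker follicles, which gives 24 libraries. All rats had learned to press a lever for food and then pressed it for intravenous infusions in daily sessions, so the SA rats share the surgery and the procedure, and each MA rat set its own intake. The study asked how the transcriptome of each tissue differs after MA self-administration. Values are FPKM, fragment counts scaled by the authors for transcript length and library size, so that levels can be set side by side between genes.

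The proteasome degrades proteins tagged with ubiquitin. Its 20S core is a barrel of rings of α subunits (Psma genes) and β subunits (Psmb genes), of which Psmb5, Psmb6 and Psmb7 hold the catalytic sites. The 19S regulatory particle recognises and unfolds substrates with a ring of ATPases (Psmc genes) and a set of non-ATPase subunits (most Psmd genes), while Psmd5, Psmd9 and Psmd10 are chaperones of its assembly. In the immunoproteasome, Psmb8, Psmb9 and Psmb10 take the places of Psmb5, Psmb6 and Psmb7, and these genes are known to be induced by interferon and to be abundant in immune cells. The Psme genes encode activators that cap the core, namely the PA28 subunits Psme1, Psme2 and Psme3 and the PA200 protein Psme4. Among the 43 genes were 14 standard core subunits, 3 immunoproteasome subunits, 20 regulatory genes (6 ATPases, 11 non-ATPase subunits and 3 chaperones), 4 activators and 2 tissue-specific core subunits, Psma8 of the testis and Psmb11 of the thymus.

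Markers matched the labelled tissues. The summed FPKM of 10 striatal neuron markers lay between 2.23 and 26.1 in the follicle libraries and between 2377 and 5924 in the striatal libraries. In whisker follicles, 1 SA library (library 0, by the index in its column name) stood apart in many genes, and in the striatum, MA libraries 3 and 4 had the highest summed levels of 4 erythrocyte markers (2215 and 792 FPKM, against 141 to 352 FPKM in the SA libraries). Striatal MA libraries 0 and 5 (403 and 561 FPKM) also lay above the SA range. Values without follicle SA library 0 or striatal MA libraries 3 and 4 are given where leaving them out changed a count, and for some of the members described in full. As these are bulk tissues, fewer cells of a type and less RNA per cell cannot be told apart.

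Transcripts of 41 members were detected in every library. In the striatum the highest means were those of Psmc5, an ATPase, with 184 ± 34.8 FPKM in MA and 164 ± 13.0 FPKM in SA rats, of Psmb4 with 172 ± 16.95 FPKM in MA and 167 ± 10.4 FPKM in SA rats, and of Psmb1 with 170 ± 15.8 FPKM in MA and 170 ± 11.01 FPKM in SA rats (SD, n = 6 each). These 3 means differed by less than the SDs of their groups. In the whisker follicle Psmb4 led with 630 ± 142 FPKM in MA and 922 ± 325 FPKM in SA rats. Psmb1 and Psma7 followed with overlapping values, at 531 ± 100 and 558 ± 133 FPKM in MA rats and 851 ± 356 and 770 ± 288 FPKM in SA rats (SD, n = 6 each). Psma8 was listed at 0 in 21 of the 24 libraries and reached at most 0.0867 FPKM in the others, and Psmb11 reached at most 0.263 FPKM in any library. Neither was tested between MA and SA.

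The subunits of a ring are present in equal copy number in the particle, yet their transcript levels were not equal. Among the 7 β subunits of the striatum, the means ran between 8.28 FPKM (Psmb6) and 172 FPKM (Psmb4) in MA rats, and between 8.35 FPKM (Psmb6) and 170 FPKM (Psmb1) in SA rats, a span of about 20.8-fold in MA and 20.4-fold in SA. In the α ring, Psma3 was the lowest member, at 7.97 ± 1.077 FPKM in MA and 9.28 ± 0.842 FPKM in SA striata (SD, n = 6 each), while the median member stood at 63.3 FPKM in MA and 66.0 FPKM in SA. Among the activators, Psme2 had 1.097 ± 0.394 FPKM in MA and 0.826 ± 0.268 FPKM in SA striata, although its partner Psme1 had 33.5 ± 8.08 FPKM in MA and 27.9 ± 6.96 FPKM in SA striata (SD, n = 6 each). Psma3, Psmb6 and Psme2 thus stood far below their partners in both tissues. They are among 18 members for which the RefSeq table of rat genes lists further entries named as copies or pseudogenes, 49 entries in all. Abundant members are among the 18 as well, such as Psmb3 with 10 entries and Psma7 with 3. Psma3 is moreover a joined row with the symbol of the related Psma3l. How the authors' software divided reads among such copies was not tested, and the levels of these members are uncertain to that extent.

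**Figure D1:**
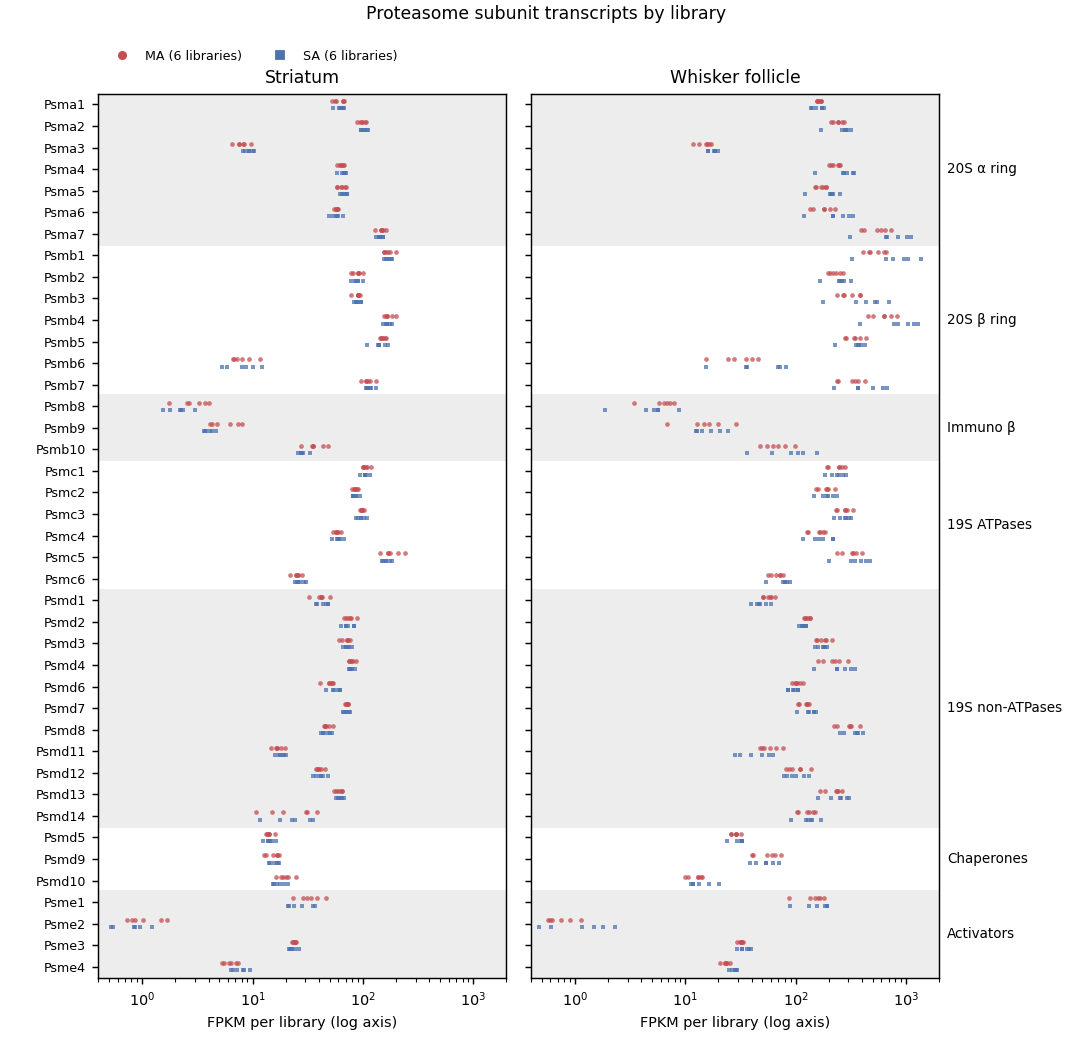
FPKM of 41 proteasome subunit genes in each library (log axis), in striatum (left) and whisker follicle (right), with MA libraries as circles above SA libraries as squares and genes grouped by their place in the complex; Psma8 and Psmb11, near 0, are not drawn. Psma3, Psmb6 and Psme2 lie far to the left of their partners, and the β ring is more widely scattered in the follicle than in the striatum.

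In the striatum, the standard proteasome differed little between MA and SA rats, and the immunoproteasome subunits had the highest fold changes. No member was differentially expressed by limma (adjusted p under 0.05 and fold of at least 1.5), of 40 tested, where 0.00943% of all 10607 genes tested were. At an unadjusted p under 0.05, 2 members were higher and 2 lower, beside 5.38% of all genes higher and 2.88% lower. Over the 14 core subunits the median log2 fold change was −0.01, over the 20 regulatory genes it was −0.01, and over all genes it was 0.00. The 95% intervals of all 14 core subunits lay between −0.40 and 0.40 on the log2 scale. No member separated all MA from all SA libraries, which 0.198% of all genes did upward and 0.16% downward.

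The immunoproteasome genes gave the 3 largest positive log2 fold changes among the 40 members, with no call after adjustment. Psmb10, which replaces Psmb7, had a lowest, median and highest value of 27.5, 35.3 and 47.9 FPKM in MA striata, against 25.8, 27.8 and 33.5 FPKM in SA striata. Its log2 fold change was 0.36 ± 0.12 (SE), with an unadjusted p of 0.00821 and an adjusted p of 0.577 in limma. Of the 6 MA libraries, 5 lay above the highest SA library, and 1 lay within the SA range. Psmb9, which replaces Psmb6, had 4.08, 5.46 and 7.99 FPKM (lowest, median, highest) in MA against 3.63, 3.98 and 4.62 FPKM in SA striata. Its log2 fold change was 0.40 ± 0.14 (SE; unadjusted p = 0.0157, adjusted p = 0.577). Psmb8, which replaces Psmb5, had 1.74, 2.97 and 4.04 FPKM in MA against 1.55, 2.22 and 3.00 FPKM in SA striata. Its log2 fold change of 0.31 ± 0.15 (SE) had an unadjusted p of 0.0648. In all 3 genes the MA libraries were more widely spread than the SA libraries and overlapped them. Over 21 alternatives the adjusted p of Psmb10 ranged from 0.1796 to 0.9997.

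The subunits that they replace had smaller log2 fold changes. Psmb5 had 144, 150 and 161 FPKM (lowest, median, highest) in MA and 109, 141 and 169 FPKM in SA striata, with a log2 fold change of 0.10 (95% interval −0.10 to 0.31). Psmb6 had 6.62, 7.67 and 11.7 FPKM in MA and 5.30, 8.34 and 12.2 FPKM in SA striata, and Psmb7 had 96.9, 109.5 and 132 FPKM in MA and 106, 114 and 131 FPKM in SA striata. Their log2 fold changes were 0.01 (−0.38 to 0.40) and −0.05 (−0.22 to 0.13). The ratio of each immunoproteasome subunit to the subunit it replaces is a value within a library and does not depend on its scaling. Psmb10/Psmb7 had a median of 0.330 (0.258 to 0.414) in MA and 0.241 (0.215 to 0.299) in SA striata. For Psmb9/Psmb6 the median was 0.6247 (0.513 to 1.12) in MA and 0.484 (0.342 to 0.684) in SA, and for Psmb8/Psmb5 it was 0.0197 (0.0118 to 0.0281) in MA and 0.0152 (0.0126 to 0.0177) in SA. All 3 ratios had the higher median in MA rats, here as in the whisker follicle, and their ranges overlapped.

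**Figure D2:**
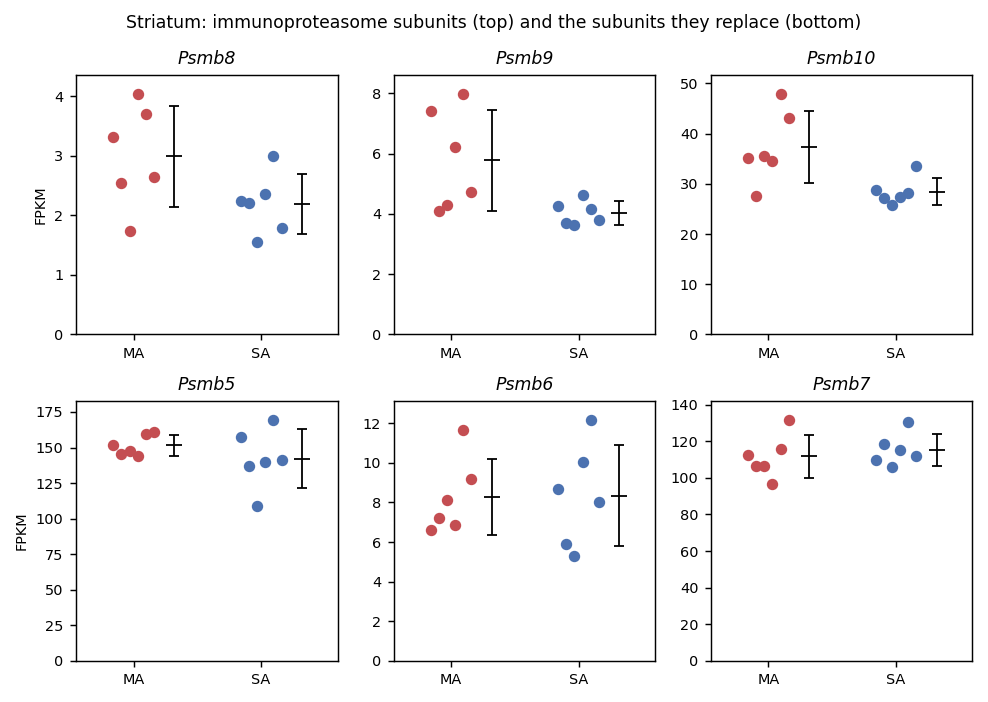
FPKM of Psmb8, Psmb9 and Psmb10 (top row) and of the subunits they replace, Psmb5, Psmb6 and Psmb7 (bottom row), in the striatum, with 1 point per library, MA left of SA, and bars for the mean ± SD of 6 libraries. In the top row most MA points lie above the SA mean, while the groups in the bottom row share their range.

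The promoters of these genes are shown because the immunoproteasome genes and the subunits they replace took different values in the same libraries. Sequences are from RefSeq on the GRCr8 build, from 250 bases before to 50 after the annotated start, and 38 of the 43 members had one. Capitals mark matches, on either strand, to 3 short cores, namely GAAANNGAA of interferon-stimulated elements, TTCNNNGAA of STAT sites and TGACNNNGC of antioxidant response elements. Shown are Psmb10 (chr19:50743243-50743542, minus strand), Psmb8 (chr20:4656982-4657281, minus strand), Psmb9 (chr20:4668750-4669049, plus strand), Psmb5 (chr15:32047330-32047629, minus strand) and Psmb6 (chr10:55737638-55737937, plus strand).
Psmb10: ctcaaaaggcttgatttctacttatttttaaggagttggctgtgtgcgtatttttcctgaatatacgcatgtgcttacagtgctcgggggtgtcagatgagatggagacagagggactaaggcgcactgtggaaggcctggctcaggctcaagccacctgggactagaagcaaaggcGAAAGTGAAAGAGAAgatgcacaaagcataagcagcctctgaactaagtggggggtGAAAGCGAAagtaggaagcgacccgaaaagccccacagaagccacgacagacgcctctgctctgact
Psmb8: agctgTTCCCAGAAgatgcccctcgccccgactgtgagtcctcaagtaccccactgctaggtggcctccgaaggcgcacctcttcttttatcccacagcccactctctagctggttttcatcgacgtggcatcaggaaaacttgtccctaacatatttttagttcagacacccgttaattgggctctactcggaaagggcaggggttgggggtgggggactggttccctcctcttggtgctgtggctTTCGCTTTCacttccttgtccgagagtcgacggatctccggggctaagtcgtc
Psmb9: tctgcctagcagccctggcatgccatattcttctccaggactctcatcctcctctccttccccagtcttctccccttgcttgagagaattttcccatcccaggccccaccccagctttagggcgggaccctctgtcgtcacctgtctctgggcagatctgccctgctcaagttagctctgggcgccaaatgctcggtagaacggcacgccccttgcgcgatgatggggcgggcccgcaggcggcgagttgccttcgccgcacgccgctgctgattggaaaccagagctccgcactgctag
Psmb5: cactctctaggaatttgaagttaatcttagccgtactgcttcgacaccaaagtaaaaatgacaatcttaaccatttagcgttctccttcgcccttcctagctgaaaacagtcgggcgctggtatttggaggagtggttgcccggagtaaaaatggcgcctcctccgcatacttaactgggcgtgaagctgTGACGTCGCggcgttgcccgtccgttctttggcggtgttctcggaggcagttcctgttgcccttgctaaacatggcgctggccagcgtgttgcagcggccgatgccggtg
Psmb6: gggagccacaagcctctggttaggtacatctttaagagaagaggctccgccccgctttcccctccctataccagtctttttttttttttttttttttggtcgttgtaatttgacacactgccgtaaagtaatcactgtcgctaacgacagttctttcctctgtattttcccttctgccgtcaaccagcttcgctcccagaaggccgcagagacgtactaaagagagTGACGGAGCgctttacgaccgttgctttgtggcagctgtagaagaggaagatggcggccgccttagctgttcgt

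GAAANNGAA matched at 3 places in the Psmb10 promoter, which begin 73, 67 and 17 bases before the start and of which the first 2 overlap. It matched at 1 place in Psmb8, across the annotated start, and Psmb8 also held TTCNNNGAA at 245 bases before the start. TGACNNNGC matched in Psmb5 and Psmb6, 60 and 24 bases before their starts, and in none of the 3 immunoproteasome genes, while Psmb9 and Psmb7 held none of the 3 cores in this window. Of all 33469 promoters in the table, 9.71% held GAAANNGAA, 8.87% TTCNNNGAA and 12.1% TGACNNNGC. Among the 38 members with a promoter, 8 held GAAANNGAA (21.1%), 4 held TTCNNNGAA (10.5%) and 8 held TGACNNNGC (21.1%). The last set consists of Psma3, Psmb2, Psmb5, Psmb6, Psmd1, Psmd3, Psmd9 and Psme4. GAAANNGAA was held by Psma4, Psmb2, Psmb3, Psmb8, Psmb10, Psmd7, Psmd11 and Psme2, so most of its holders were not immunoproteasome genes. These matches describe letters and not bound sites.

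Markers of several other cell types also had positive striatal log2 fold changes, those of immune cells among them. Over all genes tested in the striatum, 5359 of 10607 had a positive log2 fold change. By limma, 5.38% of all genes were higher at an unadjusted p under 0.05. Of 12 microglia and macrophage markers, all 12 had a positive striatal log2 fold change and 3 had an unadjusted p under 0.05. Their summed level had a lowest, median and highest value of 246, 475 and 710 FPKM in MA and 280, 339 and 443 FPKM in SA striata, and none of them was at 0. Of 8 leukocyte markers in the table, only 1 was high enough to be tested, and their summed level reached 44.1 FPKM in MA library 3 against 4.49 to 10.3 FPKM in SA striata. Among genes of antigen presentation and the interferon response, all 17 tested had positive log2 fold changes, with a median of 0.22, and 4 had an unadjusted p under 0.05, namely the guanylate-binding protein gene Gbp2 (0.36 ± 0.12, SE), the peptide-loading gene Tapbp (0.28 ± 0.11), the interferon-induced gene Mx2 (0.39 ± 0.16) and the class I gene RT1-A1 (0.54 ± 0.25). The interferon gamma gene Ifng and the peptide transporter gene Tap2 were listed at 0 in every striatal library. Of 6 endothelial markers, all 6 had a positive log2 fold change and 1 an unadjusted p under 0.05, and of 3 erythrocyte markers tested, 3 were positive and 2 had such a p. Of 6 fibroblast and matrix markers tested, 5 were positive, with a median of 0.35, and 1 had such a p (Pdgfra, which oligodendrocyte precursors also express), and their summed level reached 89.0 FPKM in MA library 3 against 21.5 to 29.4 FPKM in SA striata. Of 10 striatal neuron markers, 6 were positive, with a median of 0.02, and none had such a p. The part of immune, vascular, blood and matrix cells in the values of Psmb8, Psmb9 and Psmb10 was not tested. MA libraries 3 and 4 were set apart by their erythrocyte markers, not by those of immune cells. The summed microglia and macrophage markers were highest in MA libraries 4 and 5 (710 and 698 FPKM), with 497 FPKM in library 3. Library 5, with 43.1 FPKM of Psmb10, stayed in the fit without libraries 3 and 4. Without MA libraries 3 and 4, a choice made after seeing the data, the log2 fold changes were 0.29 for Psmb10 (unadjusted p = 0.0287), 0.26 for Psmb9 (unadjusted p = 0.0902) and 0.15 for Psmb8 (unadjusted p = 0.334) in limma.

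Lower in MA striata at an unadjusted p under 0.05 were Psme4 and Psma3. Psme4, the PA200 activator, had 5.27, 6.30 and 7.43 FPKM (lowest, median, highest) in MA and 6.34, 7.74 and 9.49 FPKM in SA striata, a log2 fold change of −0.25 ± 0.11 (SE; unadjusted p = 0.0342, adjusted p = 0.598). Psma3, an α subunit, had 6.50, 7.89 and 9.72 FPKM in MA and 8.15, 9.27 and 10.3 FPKM in SA striata, a log2 fold change of −0.20 ± 0.09 (SE; unadjusted p = 0.0438, adjusted p = 0.603). In both genes the groups overlapped. Psmd6, a non-ATPase subunit of the lid, had 40.8, 50.3 and 53.6 FPKM in MA and 46.2, 56.9 and 61.9 FPKM in SA striata, with a log2 fold change of −0.18 ± 0.09 (SE; unadjusted p = 0.0597). Psme1 had 23.0, 32.4 and 46.1 FPKM in MA and 21.2, 26.1 and 37.0 FPKM in SA striata (log2 fold change 0.26, 95% interval −0.12 to 0.64). Psmd11, another lid subunit, had 14.7, 16.8 and 19.6 FPKM in MA and 16.1, 18.4 and 20.2 FPKM in SA striata (log2 fold change −0.10, 95% interval −0.27 to 0.07). Without MA libraries 3 and 4 the log2 fold changes were −0.26 for Psme4 (unadjusted p = 0.0451), −0.13 for Psma3 (unadjusted p = 0.197), −0.12 for Psmd6 and 0.13 for Psme1. The ATPase gene Psmc5 had a striatal log2 fold change of 0.15 (95% interval −0.10 to 0.40) with all libraries and of 0.06 without MA libraries 3 and 4.

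The striatal levels of most members were tight across the 12 libraries. The ratio of the highest to the lowest library had a median of 1.26 among α subunits, 1.32 among standard β subunits, 1.28 among ATPases and 1.37 among non-ATPase subunits. The widest range was that of Psmd14, the deubiquitinase of the lid, which spanned 10.7 to 38.2 FPKM in MA and 11.8 to 35.3 FPKM in SA striata, a 3.57-fold range. This member was singled out after its values were seen. The log2 fold change of Psmd14 was −0.04 with a 95% interval of −0.73 to 0.64, so this member allows a far larger difference than its partners do. Without MA libraries 3 and 4 its log2 fold change was 0.33, the highest of all members in that fit.

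In the whisker follicle, 13 of 14 standard core subunits had a negative log2 fold change in MA rats, but no member was differentially expressed with all 12 libraries. None of 41 members tested was called by limma, nor was any of all 9138 genes (0%). At an unadjusted p under 0.05, 0 members were higher and 2 lower, beside 5.25% of all genes higher and 5.18% lower. The median log2 fold change was −0.33 over the 14 core subunits, of which 13 were below 0. It was −0.06 over the 20 regulatory genes, of which 13 were below 0. Over all genes it was −0.01, with 4723 of 9138 below 0. Within the core the 7 standard β subunits had a median of −0.46 and the 7 α subunits one of −0.23. After quantile normalization the core median was −0.17, with 10 of 14 core subunits below 0, and that of the regulatory genes turned to 0.08. All tested members then split into 21 above and 20 below 0, beside 4915 of 9138 genes below 0. No member separated all MA from all SA libraries, which 0.197% of all genes did upward and 0.285% downward.

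Single β subunits showed how the groups lay. Psmb1 had 409, 514 and 655 FPKM (lowest, median, highest) in MA follicles and 323, 861 and 1362 FPKM in SA follicles, with a log2 fold change of −0.57 ± 0.29 (SE; unadjusted p = 0.0714, adjusted p = 0.465). Its lowest value of all was that of SA library 0, and the other 5 SA libraries lay at or above 657 FPKM, above all MA libraries. Psmb4 had 451, 633 and 832 FPKM in MA against 385, 947 and 1289 FPKM in SA follicles (log2 fold change −0.48 ± 0.27, SE). Psmb7 had 236, 337 and 424 FPKM in MA against 224, 437 and 668 FPKM in SA follicles (−0.44 ± 0.26, SE). In these genes, too, SA library 0 was the lowest of its group. Psmb6 had 15.4, 31.6 and 45.3 FPKM in MA against 15.3, 53.0 and 81.6 FPKM in SA follicles, with a log2 fold change of −0.59 ± 0.38 (SE; unadjusted p = 0.148). A figure of the study lists Psmb6 among the follicle genes selected from these libraries, so its direction here is not independent evidence. The study made that selection from genes that Cuffdiff called at the same adjusted p and fold limits, whereas limma on FPKM called none with all libraries. Among the α subunits, Psma7 had 395, 575 and 738 FPKM in MA against 312, 761 and 1110.0 FPKM in SA follicles (−0.39 ± 0.28, SE).

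These values depend on SA library 0. The median deviation of the 14 core genes from their follicle means was −0.71 on the log2 scale in that library, against 0.10 to 0.57 in the other 5 SA libraries and −0.43 to 0.12 in the MA libraries. The 20 regulatory genes deviated by −0.34 in it, against −0.13 to 0.29 in the other SA libraries and −0.29 to 0.24 in the MA libraries. Its summed hair follicle markers (99310 FPKM) lay inside the range of the SA group, 82020 to 108300 FPKM. That sum is mostly keratin, such as Krt17 with a mean of 31850 FPKM in SA follicles, and cannot show shifts in the low markers. Among these, Foxn1 had a median of 14.8 FPKM and a highest value of 198 FPKM in SA follicles. Without it, limma called 6 of 41 members lower and none higher, beside 6.05% of all genes called lower and 7.41% called higher. Those 6 were the β subunits Psmb1 (log2 fold change −0.82 ± 0.19, SE, adjusted p = 0.0208), Psmb3 (−0.70), Psmb4 (−0.71), Psmb6 (−0.88) and Psmb7 (−0.63) and the α subunit Psma7 (−0.63, adjusted p = 0.0411). The core median then was −0.49 and the regulatory median −0.15, and 18 members were lower and 2 higher at an unadjusted p under 0.05, where 21.2% of all genes were lower and 18.6% higher. Over 20 alternatives, the adjusted p of Psmb1 ranged from 0.0154 to 0.805. With library weights, which also lessen the part of scattered libraries, 4 members (Psmb1, Psmb3, Psmb4 and Psmb6) were called lower, beside 5.12% of all genes.

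**Figure D3:**
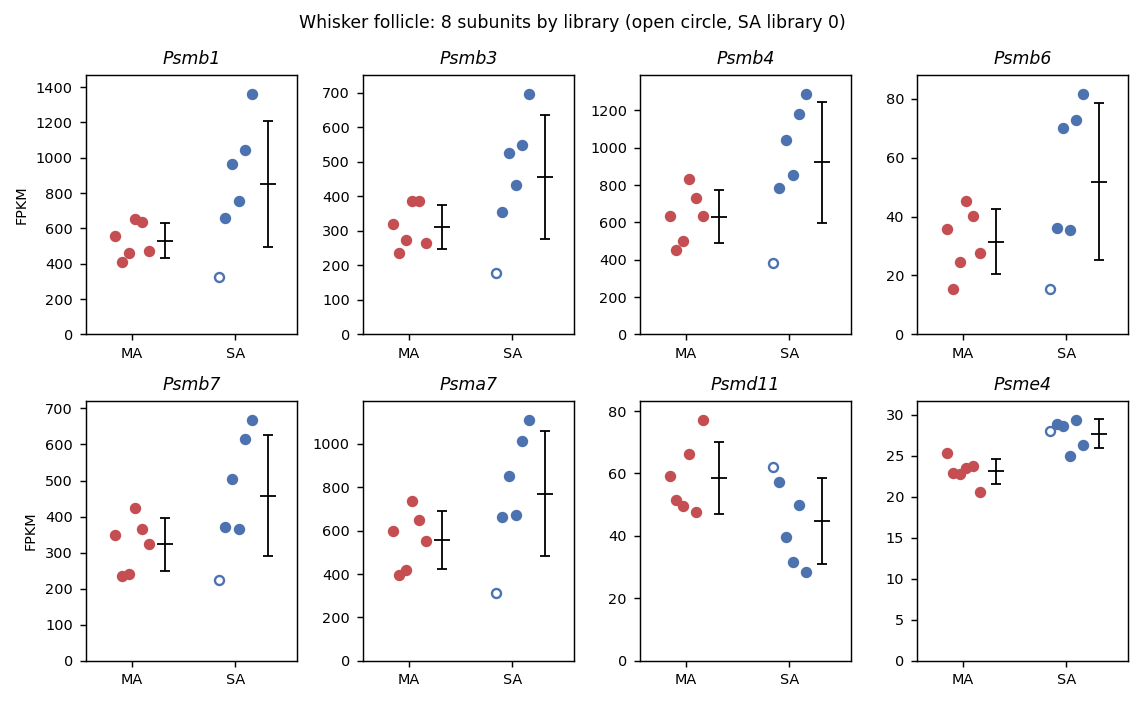
FPKM of 8 subunits in the whisker follicle, with 1 point per library, MA left of SA, an open circle for SA library 0, and bars for the mean ± SD of 6 libraries; Psmb3 was added after its values were seen. In the core subunits SA library 0 lies at the bottom of its group and, in Psmb1, the other SA libraries lie above all MA libraries, while SA library 0 is the highest SA library in Psmd11 and inside its group in Psme4.

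Psme4 and Psma3 were the members lower in MA follicles at an unadjusted p under 0.05, as in the striatum of the same rats. Psme4 had 20.6, 23.2 and 25.3 FPKM (lowest, median, highest) in MA and 24.9, 28.4 and 29.4 FPKM in SA follicles, a log2 fold change of −0.25 ± 0.08 (SE; unadjusted p = 0.00934, adjusted p = 0.465). The groups touched at 1 library on each side, and SA library 0 (28.1 FPKM) lay inside its group. Psma3 had 11.8, 15.5 and 17.1 FPKM in MA and 16.02, 18.4 and 19.9 FPKM in SA follicles, a log2 fold change of −0.26 ± 0.105 (SE; unadjusted p = 0.0286, adjusted p = 0.465). For Psme4 the striatal minus the follicle log2 fold change was 0.00 (95% interval −0.27 to 0.27), and for Psma3 it was 0.06 (−0.23 to 0.34). Of the follicle members above 0, Psmd11 had 47.7, 55.4 and 77.1 FPKM in MA and 28.5, 44.9 and 62.0 FPKM in SA follicles, a log2 fold change of 0.41 ± 0.20 (SE; unadjusted p = 0.0577). Psmd6 had 91.9, 102 and 116 FPKM in MA and 84.7, 95.8 and 105 FPKM in SA follicles (0.12 ± 0.10, SE).

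In the follicle, the immunoproteasome subunits had 1 positive and 2 negative log2 fold changes, and none had an unadjusted p under 0.05 with all 12 libraries. Psmb8 had 3.45, 6.62 and 7.85 FPKM (lowest, median, highest) in MA and 1.88, 5.41 and 8.75 FPKM in SA follicles, with a log2 fold change of 0.27 (95% interval −0.28 to 0.82). Psmb9 had 6.83, 15.6 and 29.0 FPKM in MA and 12.4, 15.7 and 24.4 FPKM in SA follicles (−0.10, 95% interval −0.69 to 0.50). Psmb10 had 47.5, 65.7 and 98.6 FPKM in MA and 36.0, 97.9 and 158 FPKM in SA follicles (−0.35, 95% interval −1.02 to 0.31). Each interval spans 0 with all 12 libraries. Without SA library 0 the log2 fold change of Psmb10 was −0.60 (95% interval −1.10 to −0.098, unadjusted p = 0.0229, adjusted p = 0.0757 in limma), and with library weights it was −0.54 (unadjusted p = 0.0155). Psmb9 was at −0.16 and Psmb8 at 0.31 without that library, both with intervals that span 0. Psmb5 had 281, 339 and 434 FPKM in MA and 225, 373 and 424 FPKM in SA follicles (−0.04, 95% interval −0.41 to 0.32), and −0.17 (−0.45 to 0.10) without SA library 0. The ratio Psmb10/Psmb7 had a median of 0.2095 (0.168 to 0.260) in MA and 0.1995 (0.160 to 0.247) in SA follicles. Psmb9/Psmb6 had a median of 0.552 (0.249 to 0.834) in MA and 0.322 (0.205 to 0.830) in SA, and Psmb8/Psmb5 had 0.0192 (0.0101 to 0.0253) in MA and 0.0132 (0.00497 to 0.0251) in SA. As in the striatum, each ratio had the higher median in MA rats, and the ranges of the groups overlapped.

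Psme1, Psme2 and the top ATPase were widely spread, while Psme3 stayed between 29.2 and 39.9 FPKM over the follicle libraries. Psme1 had 87.4, 155.5 and 179.5 FPKM (lowest, median, highest) in MA and 89.4, 172 and 193.5 FPKM in SA follicles (log2 fold change −0.10, 95% interval −0.57 to 0.37). Psme2 had 0.572, 0.682 and 1.15 FPKM in MA and 0.475, 1.32 and 2.32 FPKM in SA follicles (−0.34, 95% interval −0.77 to 0.10). Psmc5 had 237, 330 and 397 FPKM in MA and 201, 369 and 477 FPKM in SA follicles (−0.15, 95% interval −0.60 to 0.29). With all 12 libraries the interval of each of these members spans 0. Without SA library 0 the log2 fold changes were −0.25 for Psme1 (95% interval −0.64 to 0.13), −0.43 for Psme2 (−0.85 to −0.0081, unadjusted p = 0.0463, adjusted p = 0.119) and −0.31 for Psmc5 (−0.65 to 0.021). The ratio of the highest to the lowest follicle library had a median of 3.35 among standard β subunits and 2.05 among α subunits, against 1.63 among ATPases and 1.78 among non-ATPase subunits. Over all genes tested in the follicle, 4415 of 9138 had a positive log2 fold change, and 5.25% were higher at an unadjusted p under 0.05. Of the 10 hair follicle markers, 7 had a positive log2 fold change in MA follicles and 2 an unadjusted p under 0.05. Among 6 microglia and macrophage markers tested, 1 was positive and none had such a p. Their part in the member values was not tested.

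**Figure D4:**
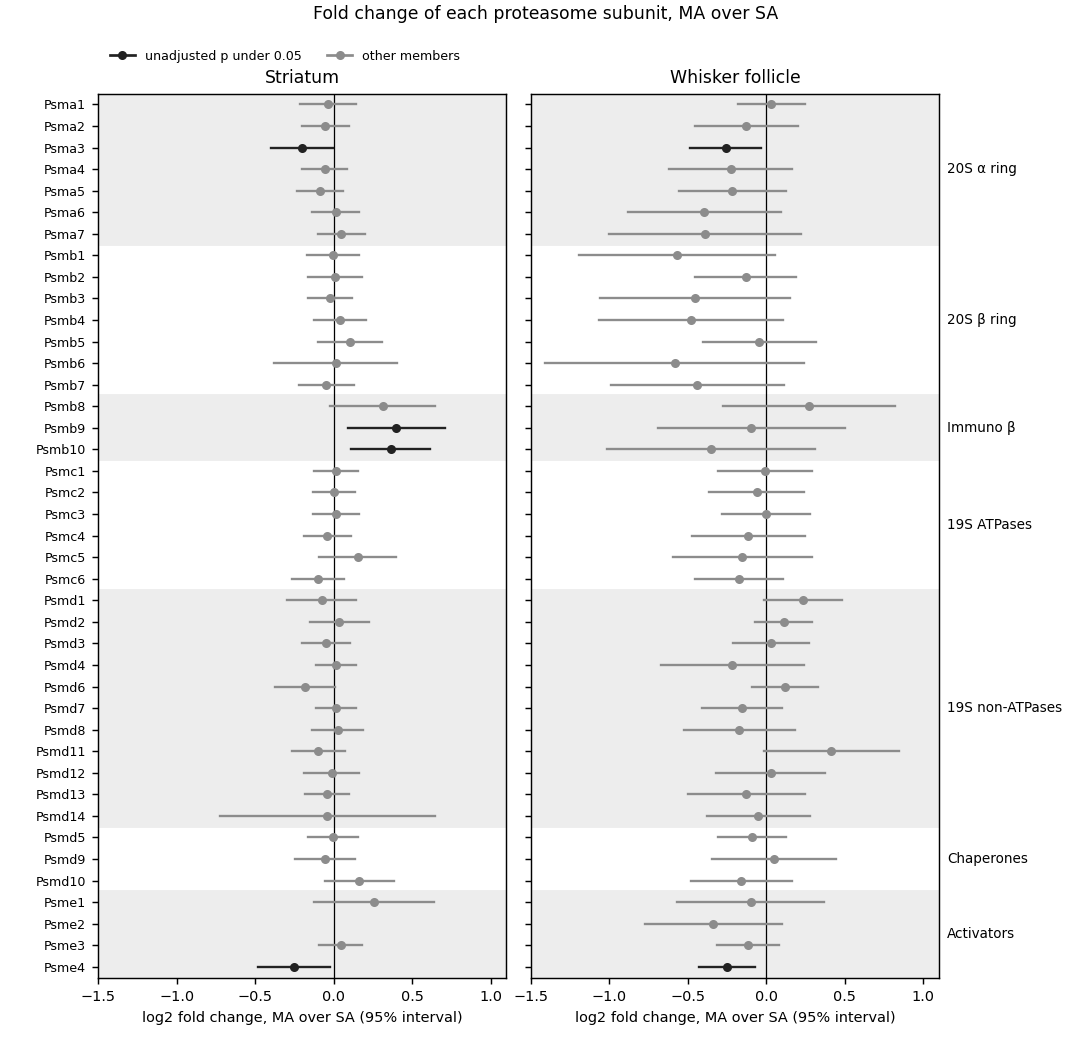
Log2 fold change, MA over SA, of each tested member with its 95% interval, in striatum (left) and whisker follicle (right), with dark marks for an unadjusted p under 0.05. In the striatum the immunoproteasome genes stand to the right of a column of core and regulatory genes near 0, and in the follicle the β ring lies left of 0 with wide intervals.

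For none of 40 members did limma call the effect of MA in the striatum different from that in the follicle (striatal minus follicle log2 fold change), beside 0.0244% of 8212 genes. At an unadjusted p under 0.05 it was higher in the striatum for 1 member, beside 7.67% of all genes, and lower for 2, beside 4.82%. Psmb10 gave the positive value, 0.72 ± 0.34 (SE; unadjusted p = 0.0463, adjusted p = 0.396). Psmd11 (−0.51 ± 0.22, SE, unadjusted p = 0.0272) and Psmd6 (−0.30 ± 0.13, SE, unadjusted p = 0.0267) gave the negative ones, each with an adjusted p of 0.387. Without follicle SA library 0, 7 members were called, beside 14.7% of all genes. These were Psma6, Psma7, Psmb1, Psmb3, Psmb4 and Psmb10 with positive values and Psmd11 with a negative one. With library weights 6 were called, beside 15.2% of all genes. Quantile normalization turned the sign of 19 of the 40 members, the largest of them Psma7 (−0.0024, against 0.44 as deposited).

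Between the tissues of SA rats, proteasome transcripts were lower in the striatum than in the whisker follicle. Limma called 37 of 41 members lower in the striatum and 0 higher, beside 31.5% of all 11509 genes called lower and 43.6% called higher. The median log2 fold change was −1.49 over the members and 0.30 over all genes. It was −2.19 over the standard β ring, −1.55 over the α ring, −1.32 over the ATPases and −1.26 over the non-ATPase subunits. Psmd8, a lid subunit named after its values were seen, had the largest difference among the members as deposited and with a common median, with 46.7 ± 4.12 FPKM in SA striata and 334 ± 59.1 FPKM in SA follicles (SD, n = 6 each), a log2 fold change of −2.80 ± 0.13 (SE, adjusted p = 8.09e-11). Psmd14 followed at −2.46 ± 0.23 and Psme1 at −2.45 ± 0.21 (SE). After quantile normalization Psmb6 was lowest (−2.43), and Psmd8 was at −2.07. The 4 members not called were Psmd1 (−0.15), Psmd10 (0.32, adjusted p = 0.0504), Psme2 (−0.29) and Psme3 (−0.57, adjusted p = 7.08e-05, under the fold limit).

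The size of the tissue difference depended on scaling. The summed FPKM of all genes was 348700 to 371500 in SA striata and 1006000 to 1525000 in SA follicles. With libraries set to a common median, the median of all genes was −0.18 and that of the members −1.96, and 40 members were called lower, beside 41.6% of all genes. After quantile normalization the medians were −0.07 and −0.93, with 30 members called lower, beside 36.9% of all genes. Calls of all genes split into 5014 higher and 3625 lower in the striatum as deposited, 3850 and 4787 with a common median, and 3888 and 4246 after quantile normalization. The median of the members lay below the median of all genes under each scaling. Psmd10 lay above the median of all genes under each of them and changed its sign with a common median (−0.16), and after quantile normalization Psmd1, Psmd2 and Psmc5 lay above it too, with Psmd1 (0.19) and Psmd10 (0.17) above 0. The classes changed their order with quantile normalization, to −1.13 over the α ring, −0.93 over the β ring, −0.80 over the non-ATPase subunits and −0.57 over the ATPases.

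**Figure D5:**
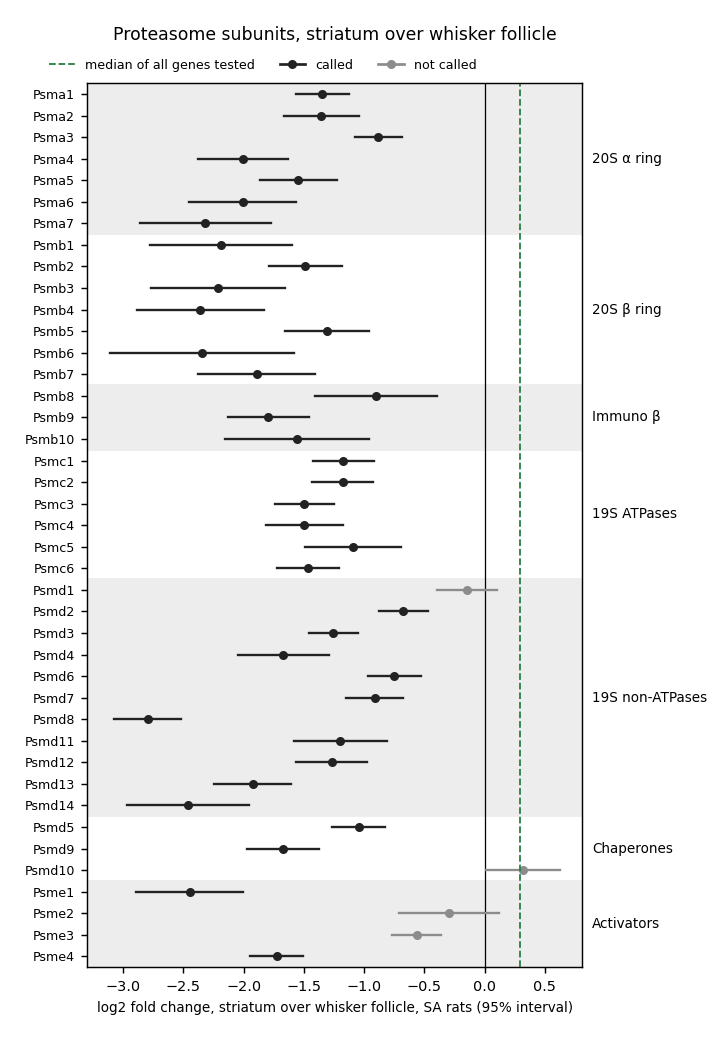
Log2 fold change, striatum over whisker follicle in SA rats, of 41 members with 95% intervals, with called members in black, others in grey and the median of all genes tested as a dashed line. All members but Psmd10 lie left of 0, and Psmd8, Psmd14 and Psme1 lie farthest left.

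Genes around the proteasome gave few low p-values. Of 8 striatal and 9 follicle partners outside the symbol rule, such as the ubiquitin receptor gene Adrm1 and the assembly chaperones named Psmg, none had an unadjusted p under 0.05 in either tissue. Of the listed regulators of proteasome gene transcription, the factor gene Nfe2l1 was tested in neither tissue. Among those tested, 0 of 5 in the striatum and 2 of 6 in the follicle had such a p, both higher in MA. These were the protease gene Ddi2, which activates the factor that drives proteasome genes, with 17.9 ± 2.14 FPKM in MA and 14.3 ± 3.16 FPKM in SA follicles (log2 fold change 0.32 ± 0.13, SE, unadjusted p = 0.0285), and Maff (0.75 ± 0.33, SE, unadjusted p = 0.0387). Of 18 genes of ubiquitin and its conjugation, 0 passed in the striatum, and 2 were higher and 1 lower in the follicle. The ubiquitin gene Ubb had 490 ± 187 FPKM in MA and 259 ± 32.5 FPKM in SA follicles (0.84 ± 0.22, SE, unadjusted p = 0.00183), and Rps27a, which encodes a ubiquitin fusion, had 10.7 ± 5.16 FPKM in MA and 24.1 ± 10.6 FPKM in SA follicles (−1.03 ± 0.41, SE, unadjusted p = 0.0255; SD, n = 6 each). The third was Vcp, the segregase that feeds substrates to the proteasome, with a median of 199 FPKM in MA and 173 FPKM in SA follicles (0.20 ± 0.09, SE, unadjusted p = 0.0495). All had an adjusted p of 0.465, and the same figure of the study lists Ubb and Rps27a, so their directions are not independent evidence.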

How the data were processed

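Poly(A) RNA of striatum and whisker follicles was sequenced by the study in 24 libraries. The deposited values are FPKM, which the authors computed with Cufflinks after mapping to rn6. The paper names TopHat2 for mapping, and the submitters' processing notes name STAR 2.6.0c and Cufflinks 2.2.1. Read counts were not used here, so the depth behind each value is unknown and the spread between 6 libraries is the only error given.

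Members and gene lists were chosen with earlier results of these data known. Values were compared by limma 3.58.1 in R 4.3.3 on log2(FPKM + 1) with an intensity trend, on the genes whose FPKM averaged 1 or more where compared, and p-values were two-sided and adjusted over all genes by the Benjamini-Hochberg method. Fold changes on this scale understate those of low genes. Genes were called at an adjusted p below 0.05 with a change of 1.5-fold or more. Full values are given for members with an unadjusted p under 0.05 in either tissue or in the difference between tissues, for Psmb5 to Psmb10, Psme1 and Psme2, and for the 3 highest and 3 lowest members of each tissue. The fits were tested on simulated data in which each gene varied independently. That simulation held no shift shared across a library, as in follicle SA library 0, and cannot show how the fits handle one. The alternatives were other pseudocounts (0.1, 0.5), filters, scalings, library weights and leaving out libraries.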

Additional observations from a re-analysis of the deposited data

Results flagged for a closer look

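Among 82 sets of 6 libraries, 6 held a library far from the others, where chance gives about 1 in 20. In the whisker follicle, SA library 0 had the lowest Psmb5 level, 225 FPKM, and the lowest median deviation of the 14 core genes, −0.71 on the log2 scale. In the striatum, MA library 4 had the lowest Psmd6 level, 40.8 FPKM. The other 3 were members near 0. Psma8 reached 0.0867 FPKM in 1 follicle MA library and was listed at 0 in the other 5, Psmb11 reached 0.0724 FPKM in 1 follicle SA library and was listed at 0 in the other 5, and Psmb11 was lowest, at 0.0299 FPKM, in 1 striatal SA library.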

How the results depend on the processing

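No paired analysis was possible because the columns carry an index that is not tied to a rat number. Library weights called 4 members in the follicle and 6 for the difference between tissues, against 0 for both as reported. Leaving out 1 library gave 0 to 6 and 0 to 7 calls, above 0 only without follicle SA library 0. At an unadjusted p under 0.05, 1 striatal member was higher, against 2, with a mean FPKM of at least 5, with library weights, and without MA libraries 3 and 4, where 5.86%, 7.76% and 2.61% of all genes were higher. The last also left 1 lower, beside 1.2% of all genes. Leaving out 1 library gave 0 to 3 lower, where 1.78% to 4.69% of all genes were lower. In the follicle, 1 member was higher with no filter, 3 after quantile normalization and 2 with library weights, where 4.12%, 4.59% and 19.8% of all genes were higher. Library weights gave 17 lower, beside 21.5% of all genes. Leaving out 1 library gave 0 to 2 higher, where 2.64% to 18.6% of all genes were higher. It gave 1 to 18 lower, where 2.6% to 21.2% of all genes were lower. The 18 came only without SA library 0, where the share of all genes was 21.2%. The striatal core median was −0.10 after quantile normalization.

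Between tissues, quantile normalization turned 19 of 40 member signs. Within the tissues, in the striatum, quantile normalization gave −0.042 for Psma7 and −0.061 for Psmb4, a common median gave −0.0022 for Psmb6, and leaving out MA libraries 3 and 4 gave −0.051 for Psmb6 and 0.009163 for Psmb1. Leaving out 1 library gave −0.049 to 0.020 for Psmb1, −0.00592 to 0.067 for Psmb4 and −0.093 to 0.12 for Psmb6. In the follicle, quantile normalization gave 0.17 for Psmb5, 0.049 for Psmc5 and 0.053 for Psme1, and library weights gave 0.11 for Psmb9. Leaving out 1 library gave −0.17 to 0.010 for Psmb5, −0.27 to 0.12 for Psmb9 and −0.25 to 0.041 for Psme1. The cause was not tested. FPKM without counts leave the depth behind low members such as Psme2 unknown.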
